A study of Arabidopsis thaliana with 4 samples.

Results

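Total mRNA of etiolated Arabidopsis thaliana seedlings given 4 h of light was set against total mRNA of seedlings kept in the dark. Every gene with a value in both libraries was included, 19632 of the 33602 entries of the deposited gene table. Of these, 17875 averaged 1 RPKM or more and are called measured. RPKM counts reads relative to gene length and to the reads of the whole library. All seedlings were wild type of the accession Col-0 and were grown at 22 °C for 4 days in darkness on plates of 1/2 MS medium. The light group was given white light of 100 µmole per square metre and second, and the dark group none. The Pine Tree method served to extract total RNA, an Oligotex kit to isolate its mRNA, and standard Illumina protocols to make the libraries. A second pair of libraries from the same kinds of seedlings held polysomal mRNA, the mRNA bound to several ribosomes, extracted with phenol and chloroform. Its ratios are given beside some results, and there the fraction and the extraction differ together.

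A seedling that germinates in darkness lengthens its hypocotyl, keeps its cotyledons closed behind an apical hook and holds etioplasts in place of chloroplasts. Phytochromes and cryptochromes sense the first light, whereupon the COP1/SPA ubiquitin ligase and the PIF transcription factors lose activity and factors such as HY5 accumulate. Growth of the hypocotyl then slows, the hook and cotyledons open, chloroplasts are built, and reserves are exchanged for photosynthesis as the source of carbon.

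The light library listed 91087442 reads and the dark library 64950412, with a median of 1465 reads per gene in light and 946 in the dark. Each group held 1 library, so no difference below has a replicate check and no p-value was computed. Below, rose and fell stand for an RPKM ratio of 2-fold or more, and intervals of ratios are exact 95% intervals from the reads that cover counting error only. In whole seedlings, fewer cells of a type and less RNA per cell cannot be told apart. The libraries went with their labels. Of genes that mark etiolated seedlings, PORA had 2 RPKM in light and 109.7 RPKM in the dark and PHYA had 101 RPKM in light and 368 RPKM in the dark. Of genes that mark greening, ELIP1 had 156 RPKM in light and 1.74 RPKM in the dark and RBCS1A had 3387 RPKM in light and 528 RPKM in the dark. Of markers of other organs, 2 of 8 root genes were measured and 1 of 6 flower and pollen genes. The root genes were SCR, with 23.5 RPKM in light and 17.3 RPKM in the dark, and SHR, with 12.6 RPKM in light and 16.7 RPKM in the dark, and the flower gene was PI, with 0.81 RPKM in light and 1.3 RPKM in the dark. Seed storage and oil body genes summed to 42.6 RPKM in light and 73.8 RPKM in the dark over 7 measured genes of 8, and CRA1 and CRC fell. The part of such cells in the results was not tested. Of 1104 measured genes in 56 gene lists, 185 overlap another listed locus, and those described are named, because whether strand was used in counting is not given in the sources used here.

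In light 2301 of the 17875 measured genes rose (12.9%) and 1367 fell (7.65%), so that 20.5% changed in either direction and 62.7% of the changed genes were higher. The shares of 12.9% and 7.65% are the background for the counts in every list below. Lists with counts near them, such as those of the cuticle and of glucosinolates, do not stand out from all genes. The median gene stood at -0.03 on the log2 scale, and 5% of genes lay below -1.24 and 5% above 1.95. At larger steps the split was wider. At least 8-fold changes counted 368 genes higher and 103 lower, and at least 16-fold changes 164 higher and 45 lower. Counting error was small beside these steps, since the upper end of the interval was 1.17 times the lower end at the median gene. The whole interval lay beyond 2-fold for 1939 genes that rose and for 1082 that fell. Abundant genes changed most often: of 967 genes that averaged 100 RPKM or more, 18.6% rose and 13.7% fell. Of 3748 genes between 10 and 20 RPKM, 12.1% rose and 5.87% fell. The change did not increase steadily with level, since of 1727 genes between 1 and 2 RPKM 14.9% rose and 11.9% fell. Gene length went with the ratio, from a median of 0.30 on the log2 scale over 153 genes shorter than 0.5 kb to -0.26 over 255 genes of 5 kb or more, and its part in the results was not tested.

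In the mRNA pool, genes that rose held 26.5% of the summed RPKM in light and 6.15% in the dark. Genes that fell held 5.80% in light and 16.9% in the dark. The 57 measured nuclear genes listed for the antenna, the photosystems and the Calvin cycle alone made up 8.78% of the pool in light and 1.26% in the dark. The 10 largest gains in RPKM all belonged to photosynthesis: 6 antenna genes, 2 Rubisco small subunits, Rubisco activase and a ferredoxin. FED A (AT1G60950), a ferredoxin that carries electrons from photosystem I, stood at 1692 RPKM in light and 208 RPKM in the dark, 8.13-fold (7.98 to 8.28). The 10 largest losses were more mixed. GASA4 (AT5G15230), a small secreted peptide gene induced by gibberellin, had the largest loss, with 532 RPKM in light and 2767 RPKM in the dark, 5.2-fold (5.14 to 5.26) lower. TIP1;2 (AT3G26520), an aquaporin of the vacuole membrane and the most abundant of the 10, stood at 3811 RPKM in light and 5835 RPKM in the dark, which is short of 2-fold. CAT3 (AT1G20620), a catalase, stood at 1863 RPKM in light and 3878 RPKM in the dark, 2.08-fold (2.07 to 2.09) lower. AT3G15450, annotated as an aluminum induced protein, stood at 1479 RPKM in light and 3271 RPKM in the dark. A pair of genes annotated as vacuolar calcium-binding proteins also fell, AT1G12080 with 449.6 RPKM in light and 1567 RPKM in the dark and AT1G62480 with 209 RPKM in light and 1045 RPKM in the dark. UBQ3, a polyubiquitin gene, had 1496 RPKM in light and 2515 RPKM in the dark, short of 2-fold. In polysomal mRNA, where 11.6% of 17524 measured genes were at least 2-fold higher and 13.7% lower, 9 of the 10 losses were at least 2-fold lower. The exception was UBQ3, with a log2 ratio of -0.02. AT3G15450 overlaps another listed locus.

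Named extremes are the 15 highest and 15 lowest ratios among the 4882 named genes that averaged 10 RPKM or more. MIR163 (AT1G66725, chromosome 1, 24884066 to 24884396 on TAIR10.1), the precursor gene of the microRNA miR163, had the highest ratio. It had 4385 reads in light and 2 in the dark, or 46.4 RPKM in light and 0.03 RPKM in the dark, with an interval of the ratio of 433 to 12934. MSRB6 (AT4G04840), a methionine sulfoxide reductase that repairs oxidised methionine, stood at 108 RPKM in light and 0.65 RPKM in the dark, 166-fold (136 to 203). CDSP32 (AT1G76080), a thioredoxin-like protein of the chloroplast, stood at 197 RPKM in light and 2.21 RPKM in the dark, 89.1-fold (77.4 to 103). Other genes of the group sit outside photosynthesis in the strict sense. SDR1 (AT3G61220), of the family of NAD(P)-binding Rossmann-fold proteins, had 21.5 RPKM in light and 0.22 RPKM in the dark, and THI2.2 (AT5G36910), a thionin, had 22.4 RPKM in light and 0.25 RPKM in the dark. BBX25 (AT2G31380), a B-box zinc finger factor, stood at 64.6 RPKM in light and 0.81 RPKM in the dark, 80.3-fold (63.1 to 104). FADA (AT4G27030), a desaturase of chloroplast phosphatidylglycerol, stood at 84.7 RPKM in light and 1.55 RPKM in the dark, and PnsL3 (AT3G01440), a subunit of the chloroplast NDH complex, at 45.9 RPKM in light and 0.78 RPKM in the dark. XTH7 (AT4G37800), an enzyme that cuts and rejoins xyloglucan in the cell wall, had 219 RPKM in light and 4.52 RPKM in the dark, 48.5-fold (43.7 to 53.9). All 15 were at least 2-fold higher in polysomal mRNA too, with log2 ratios from 3.80 to 5.77. BBX25, PnsL3 and FADA overlap a gene on the opposite strand.

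At the low end PORA had the lowest ratio and GH3.3 (AT2G23170), an enzyme that conjugates auxin to amino acids, the next, with 0.83 RPKM in light and 33 RPKM in the dark, 39.6-fold (33.8 to 46.6) lower. GH9B13 (AT4G02290), of the endoglucanase family of wall enzymes, stood at 2 RPKM in light and 59.7 RPKM in the dark, 29.8-fold (26.8 to 33.2) lower. SNRK2.5 (AT5G63650), a kinase of the osmotic stress response, stood at 2.73 RPKM in light and 58.9 RPKM in the dark, 21.6-fold (19.5 to 23.96) lower. DGR1 (AT1G80240), annotated with a choice-of-anchor domain, had 2.32 RPKM in light and 39.2 RPKM in the dark, and RTFL21 (AT1G67265), a small peptide of the ROTUNDIFOLIA-like family, had 2.08 RPKM in light and 34.6 RPKM in the dark. ABCG1 (AT2G39350), an ABC transporter, stood at 3.5 RPKM in light and 48.8 RPKM in the dark, 13.96-fold (13.01 to 14.99) lower. ASPGB1 (AT3G16150), an asparaginase, which releases ammonium from asparagine, stood at 2.07 RPKM in light and 27.9 RPKM in the dark, 13.5-fold (11.8 to 15.4) lower. FLP1 (AT4G31380), a flowering-promoting factor-like protein, had 12.02 RPKM in light and 162 RPKM in the dark, and COR413IM1 (AT1G29395), a cold-regulated protein of the chloroplast inner membrane, had 2.73 RPKM in light and 35.6 RPKM in the dark. SIS (AT5G02020), annotated as a RLIM-like ubiquitin ligase, had 19.2 RPKM in light, against 215 RPKM in the dark. All 15 were at least 2-fold lower in polysomal mRNA, with log2 ratios from -6.55 to -3.01. SNRK2.5, ABCG1 and SIS overlap a gene on the opposite strand.

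**Figure D1:**
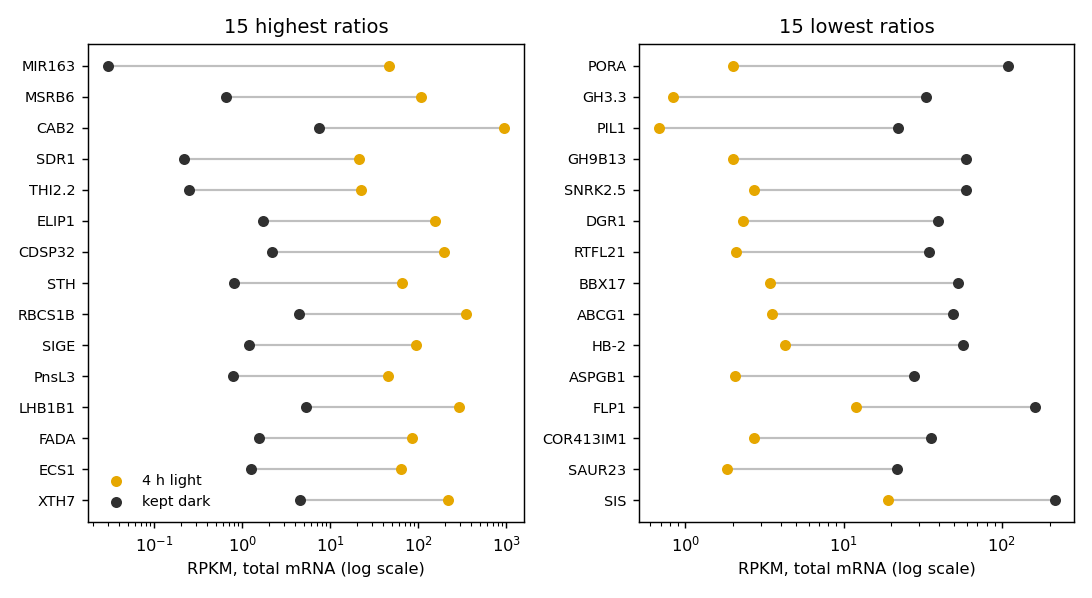
RPKM of the 15 genes with the highest ratio (left) and the 15 with the lowest (right) on a log axis, 1 dot for the light library and 1 for the dark library. MIR163 spans the widest gap, with 46.4 RPKM in light, against 0.03 RPKM in the dark, and PORA has 2 RPKM in light, against 109.7 RPKM in the dark.

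Promoter letters of 4 of these genes are shown because the extremes are the genes in which a shared light element would be looked for first. Each is the 250 bases before the annotated start of the gene, 5′ to 3′ on the gene's strand, read from TAIR10.1, with capitals for any of 9 searched motifs on either strand. Of the 15 highest genes ELIP1 is the only one with a G-box (CACGTG), a core sequence bound by bHLH and bZIP factors. MIR163 has none of the 9 motifs.
ELIP1 (chr3:8085670-8085919, minus strand): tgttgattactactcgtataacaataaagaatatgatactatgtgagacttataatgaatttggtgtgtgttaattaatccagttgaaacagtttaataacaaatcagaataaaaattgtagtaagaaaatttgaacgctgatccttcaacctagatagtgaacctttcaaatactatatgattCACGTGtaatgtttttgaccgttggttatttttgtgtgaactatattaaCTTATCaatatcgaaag
MIR163 (chr1:24883816-24884065, plus strand): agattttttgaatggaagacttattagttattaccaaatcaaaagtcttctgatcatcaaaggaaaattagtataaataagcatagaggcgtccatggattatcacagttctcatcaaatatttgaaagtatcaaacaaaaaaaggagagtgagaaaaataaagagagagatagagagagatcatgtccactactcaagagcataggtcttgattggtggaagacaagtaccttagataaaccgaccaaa
ABCG1 (chr2:16432752-16433001, minus strand): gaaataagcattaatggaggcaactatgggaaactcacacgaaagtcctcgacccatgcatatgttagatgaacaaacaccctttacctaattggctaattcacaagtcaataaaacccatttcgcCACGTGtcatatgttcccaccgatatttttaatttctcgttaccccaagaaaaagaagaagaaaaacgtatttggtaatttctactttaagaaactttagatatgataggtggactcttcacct
PORA (chr5:21992815-21993064, minus strand): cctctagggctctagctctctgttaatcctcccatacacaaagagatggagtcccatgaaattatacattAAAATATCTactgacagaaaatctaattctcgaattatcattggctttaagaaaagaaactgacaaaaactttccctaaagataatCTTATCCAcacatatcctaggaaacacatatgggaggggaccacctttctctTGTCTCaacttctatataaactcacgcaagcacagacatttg

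The G-box of ELIP1 begins 66 bases before the start and that of ABCG1 124 bases. In ELIP1 the other capitals are an I-box core (GATAAG) on the opposite strand. PORA, with no G-box, holds an evening element (AAAATATCT), an I-box core that overlaps a TATCCA element, and an auxin response element (TGTCTC). Over all measured nuclear genes with a window, a G-box stood in 8.78% of 2267 promoters of genes that rose, 8.63% of 1356 of genes that fell and 7.30% of 14087 of genes between, against 5.39% of all 37897 annotated nuclear genes. Site II (TGGGCC) divided the directions more. It stood in 18.04% of promoters of genes that rose, 7.82% of those that fell and 18.1% of those between, against 11.4% of all annotated nuclear genes. TATCCA stood in 17.8%, 14.4% and 13.9% of the same sets and in 13.1% of all annotated nuclear genes. The I-box core stood in 14.6% of promoters of genes that rose, 14.97% of those that fell and 12.1% of those between (12.7% of all annotated), and TGTCTC in 11.8%, 9.22% and 10.4% (10.9%). The remaining motifs were the GCC box (GCCGCC), in 2.29% of promoters of genes that rose and 1.40% of those that fell (1.95% of all annotated), the telo box (AAACCCTAA), in 1.85% of those that rose and 1.11% of those that fell (2.83%), and the heat shock element core (GAANNTTC), in 8.999% of those that rose and 7.89% of those that fell (9.44%). The evening element stood in 2.91% of those that rose and 2.88% of those that fell (2.11%). A match describes letters in these windows and no binding.

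Nuclear genes of photosynthesis rose in nearly every listed case, in 20 of 20 antenna genes, 18 of 18 photosystem subunits and 17 of 19 Calvin cycle genes. The medians were 3.02, 2.67 and 3.22 on the log2 scale. These lists hold no plastid-encoded gene. The range within each list was wide. LHCB1.4 had 293 RPKM in light and 5.26 RPKM in the dark and LHCB1.2 had 782 RPKM in light and 16.3 RPKM in the dark, but LHCB4.2, an antenna protein next to the photosystem II core, had 595 RPKM in light and 278 RPKM in the dark. LHCB1.1, LHCB1.2 and LHCB1.4 have near-identical copies. PSBS, which dissipates excess light energy, had 874 RPKM in light and 60.9 RPKM in the dark, and PSAK of photosystem I had 594 RPKM in light and 45.6 RPKM in the dark. The oxygen-evolving proteins differed, as PSBO2 had 417 RPKM in light and 29.6 RPKM in the dark and PSBO1 had 1275 RPKM in light and 323 RPKM in the dark. In the Calvin cycle RBCS1B had 351 RPKM in light and 4.45 RPKM in the dark and FBA1, a plastid aldolase, had 322 RPKM in light and 8.43 RPKM in the dark, while the triose phosphate isomerase TIM had 157 RPKM in light and 117 RPKM in the dark. LHCB1.3, LHCB1.5 and LHCB4.2 overlap another listed locus.

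Beyond the photosystems, nuclear genes of the machinery that expresses the chloroplast genome rose almost as a whole. The list of sigma factors, polymerase-associated factors and the polymerase SCA3 had 17 of 19 members higher and none lower. Its median was 1.75 on the log2 scale beside -0.03 over all measured genes. It holds no plastid-encoded polymerase subunit, and plastid-encoded genes are described with the organelles. Summed over the list, the level was 659.6 RPKM in light and 181 RPKM in the dark. SIG5, a sigma factor tied to blue light and stress, had the highest ratio, with 94.1 RPKM in light and 1.2 RPKM in the dark. All 6 sigma factors rose, and the next of them was SIG2, with 55.6 RPKM in light and 15.6 RPKM in the dark. FLN2 (AT1G69200), a fructokinase-like protein of the transcription complex, had 31.1 RPKM in light and 3.54 RPKM in the dark, 8.79-fold (8.04 to 9.63). PTAC7, another subunit of that complex, stood at 51.6 RPKM in light and 9.7 RPKM in the dark, and SCA3, the phage-type polymerase of plastids, at 18.01 RPKM in light and 3.7 RPKM in the dark. PTAC6 fell short of the threshold with 57.9 RPKM in light and 32.3 RPKM in the dark, and FSD2, an iron superoxide dismutase of the complex, had 5.05 RPKM in light and 5.75 RPKM in the dark. SCA3 and PTAC6 overlap another listed locus.

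Nuclear genes of plastid ribosomal proteins moved by a smaller and more even step. Of 29 genes 25 rose, with a median of 1.54 and a range of 0.40 to 2.46. Their sum was 4253 RPKM in light and 1559 RPKM in the dark. RPL10 (AT5G13510) had 169.6 RPKM in light and 30.8 RPKM in the dark, and RPS21 (AT3G27160) had 88.1 RPKM in light and 16.6 RPKM in the dark. RPL27 had 210.2 RPKM in light and 42.8 RPKM in the dark. Just outside the threshold stood RPL1 with 148 RPKM in light and 78.3 RPKM in the dark. RPL29 changed least, with 196 RPKM in light and 149 RPKM in the dark. In polysomal mRNA the median of the list was 1.09, where the median of all measured genes was -0.20. RPL10 and RPL1 overlap another listed locus.

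Import into the chloroplast changed less evenly. Of 18 genes of the TOC and TIC translocons and of insertion into thylakoids, 7 rose and none fell. TIC62, a redox-linked part of the inner translocon, stood at 35.7 RPKM in light and 3.94 RPKM in the dark, 9.06-fold (8.35 to 9.85). TIC20-I, a channel protein, had 8.36 RPKM in light and 1.75 RPKM in the dark, and CAO (AT2G47450), the signal recognition particle protein that hands antenna proteins to the thylakoid, had 85.7 RPKM in light and 20.3 RPKM in the dark. The receptors of the outer membrane moved less. TOC159 had 63.2 RPKM in light and 60.1 RPKM in the dark, TOC33 had 90.4 RPKM in light and 57.5 RPKM in the dark, and TOC34 had 13.5 RPKM in light and 15.4 RPKM in the dark, none past 2-fold. TIC20-I, TOC159 and TOC34 overlap another listed locus.

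Photorespiration, which recovers the carbon lost when Rubisco takes up oxygen and runs through chloroplast, peroxisome and mitochondrion, rose in 17 of 18 genes, with a median of 2.35. The summed level was 6403 RPKM in light and 1358 RPKM in the dark. The 2 highest ratios were those of mitochondrial steps, while the other mitochondrial genes lay below the peroxisomal GOX1, such as GDCH, the H protein of glycine decarboxylase, with 168 RPKM in light and 29.6 RPKM in the dark. GLDP1 (AT4G33010), the P protein of glycine decarboxylase, had 865 RPKM in light and 30.6 RPKM in the dark, 28.3-fold (27.6 to 28.97). SHM1, the serine hydroxymethyltransferase that follows it, had 534 RPKM in light and 30.1 RPKM in the dark, 17.7-fold (17.2 to 18.3). In the peroxisome, the glycolate oxidase GOX1 stood at 455 RPKM in light and 37.6 RPKM in the dark, its neighbour GOX2 at 390.3 RPKM in light and 76.8 RPKM in the dark, and the catalase CAT2 at 639 RPKM in light and 277 RPKM in the dark. The exception was AGT (AT2G13360), the serine to glyoxylate aminotransferase, at 446 RPKM in light and 325 RPKM in the dark. Catalases split by gene, as CAT3 fell and CAT1 had 41.99 RPKM in light and 55.5 RPKM in the dark. The phosphoglycolate phosphatase PGLP1 shares reads with a near-identical locus and is described with those loci. GLDP1, GOX1 and CAT2 overlap another listed locus.

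Protection from light and oxygen followed the same direction in most genes. Of 19 genes 13 rose and CAT3 alone fell. ELIP2 had 80.5 RPKM in light and 1.78 RPKM in the dark, and OHP, a one-helix protein of the antenna family, had 228 RPKM in light and 12.7 RPKM in the dark, 17.99-fold (16.4 to 19.8). PRXQ, a peroxiredoxin of the chloroplast, stood at 136 RPKM in light and 10.8 RPKM in the dark, 12.7-fold (11.8 to 13.7). VTC2, the GDP-galactose phosphorylase that controls ascorbate synthesis, had 267 RPKM in light and 58.2 RPKM in the dark, and VTE1, the tocopherol cyclase, had 10.9 RPKM in light and 1.7 RPKM in the dark. NPQ1, the violaxanthin de-epoxidase, stood at 34.5 RPKM in light and 10.2 RPKM in the dark. Superoxide dismutases differed by gene. CSD1 of the cytosol had 165 RPKM in light and 197 RPKM in the dark, and its chloroplast counterpart CSD2 had 123 RPKM in light and 60.5 RPKM in the dark. The ascorbate peroxidase of the cytosol, APX1, had 312 RPKM in light and 201 RPKM in the dark. OHP, NPQ1 and CSD1 overlap another listed locus.

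Most genes of the UV-B response rose under white light. Of 14 genes 10 rose and none fell. The photoreceptor UVR8 itself had 44.95 RPKM in light and 47.97 RPKM in the dark, while its repressor RUP2 had 40.9 RPKM in light and 1.32 RPKM in the dark, 31.1-fold (26.1 to 37.3), and RUP1 had 57.4 RPKM in light and 18.2 RPKM in the dark. MYB12, an activator of flavonol synthesis, stood at 2.76 RPKM in light and 0.06 RPKM in the dark, from 368 reads in light and 6 in the dark. HYH, the close relative of HY5, had 42.5 RPKM in light and 2.11 RPKM in the dark, 20.2-fold (16.8 to 24.4). Photolyases, which undo UV damage to DNA with light energy, did not move together. UVR2, the photolyase of cyclobutane dimers, had 5.02 RPKM in light and 0.28 RPKM in the dark, and CRY3, a cryptochrome of organelles, had 35.8 RPKM in light and 2.66 RPKM in the dark. UVR3, the photolyase of the other main photoproduct, had 7.2 RPKM in light and 13.98 RPKM in the dark, just short of 2-fold lower. CHS and FLS1 of flavonol synthesis, which UV-B also induces, had 91.4 RPKM in light and 2.32 RPKM in the dark for CHS and 13.3 RPKM in light and 0.42 RPKM in the dark for FLS1. The excision repair genes UVH1 and ERCC1 had ratios of -0.15 and -0.31 on the log2 scale. UVR2 and UVH1 overlap another listed locus.

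Phenylpropanoid and flavonoid synthesis differed in the size of the step. At the entry, 6 of 11 genes rose, with a median of 1.04. PAL1 and PAL2, phenylalanine ammonia-lyases, stood just below the threshold with 95.7 RPKM in light and 49.03 RPKM in the dark for PAL1 and 68.5 RPKM in light and 35.1 RPKM in the dark for PAL2. The 4-coumarate ligase 4CL3 had 5.71 RPKM in light and 0.34 RPKM in the dark, 16.7-fold (12.5 to 22.8), while 4CL1 had 49.7 RPKM in light and 39.4 RPKM in the dark. The cinnamate hydroxylase C4H had 287 RPKM in light and 108 RPKM in the dark, the chorismate mutase CM1 had 63.6 RPKM in light and 18.8 RPKM in the dark, and PAL4 changed least (0.16 on the log2 scale). Further on, 9 of 11 genes rose, with a median of 4.48. Late anthocyanin genes had very few reads in the dark. LDOX, the anthocyanidin synthase, had 232 reads in light and 2 in the dark, a ratio of 82.8 with an interval of 22.7 to 688. TT19, a glutathione transferase of anthocyanin transport, had 156 reads in light and 2 in the dark, a ratio of 55.7 (15.2 to 464). F3H had 12.5 RPKM in light and 0.16 RPKM in the dark, and PAP1, a MYB activator of anthocyanins, had 3.5 RPKM in light and 0.42 RPKM in the dark. TT7, the flavonoid 3′-hydroxylase, had 2.03 RPKM in light and 2.33 RPKM in the dark, and MYBL2, a repressor of the pathway, had 74.5 RPKM in light and 98.8 RPKM in the dark. TT19 and F3H overlap another listed locus.

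In isoprenoid synthesis 5 of 12 genes rose and 2 fell. Those that rose act in the plastid, in the MEP pathway or at its end, led by DXR with 63.6 RPKM in light and 15.9 RPKM in the dark, ISPF with 27.4 RPKM in light and 9.18 RPKM in the dark and the geranylgeranyl synthase GGPS1 with 51.1 RPKM in light and 20.8 RPKM in the dark. Those that fell encode HMG-CoA reductase of the cytosolic mevalonate pathway, HMG1 with 452 RPKM in light and 1101 RPKM in the dark (2.44-fold (2.42 to 2.46) lower) and HMG2 with 5.53 RPKM in light and 11.3 RPKM in the dark. HDR, the last MEP step, changed least (0.15 on the log2 scale). HMGS, the step before HMG-CoA reductase, stood just outside the threshold with 28.3 RPKM in light and 56.1 RPKM in the dark. In fatty acid and galactolipid synthesis 5 of 18 genes rose and none fell, and 4 of the 5 were desaturases of the plastid. FAD8 had 43.1 RPKM in light and 2.21 RPKM in the dark, 19.5-fold (17.2 to 22.2), FAD5 had 157 RPKM in light and 16.4 RPKM in the dark, FAD7 had 136 RPKM in light and 29.8 RPKM in the dark and FAD6 had 125 RPKM in light and 51.6 RPKM in the dark. The fifth was the acyl carrier protein ACP4, with 291 RPKM in light and 29.3 RPKM in the dark. FAD2 and FAD3 of the endoplasmic reticulum had 459.6 RPKM in light and 360.2 RPKM in the dark for FAD2 and 50.05 RPKM in light and 60.7 RPKM in the dark for FAD3. No subunit of plastid acetyl-CoA carboxylase passed 2-fold, such as CAC2 with 66.5 RPKM in light and 95.2 RPKM in the dark. KASI, a condensing enzyme, changed least (0.14 on the log2 scale). FAD8 and CAC2 overlap another listed locus.

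**Figure D2:**
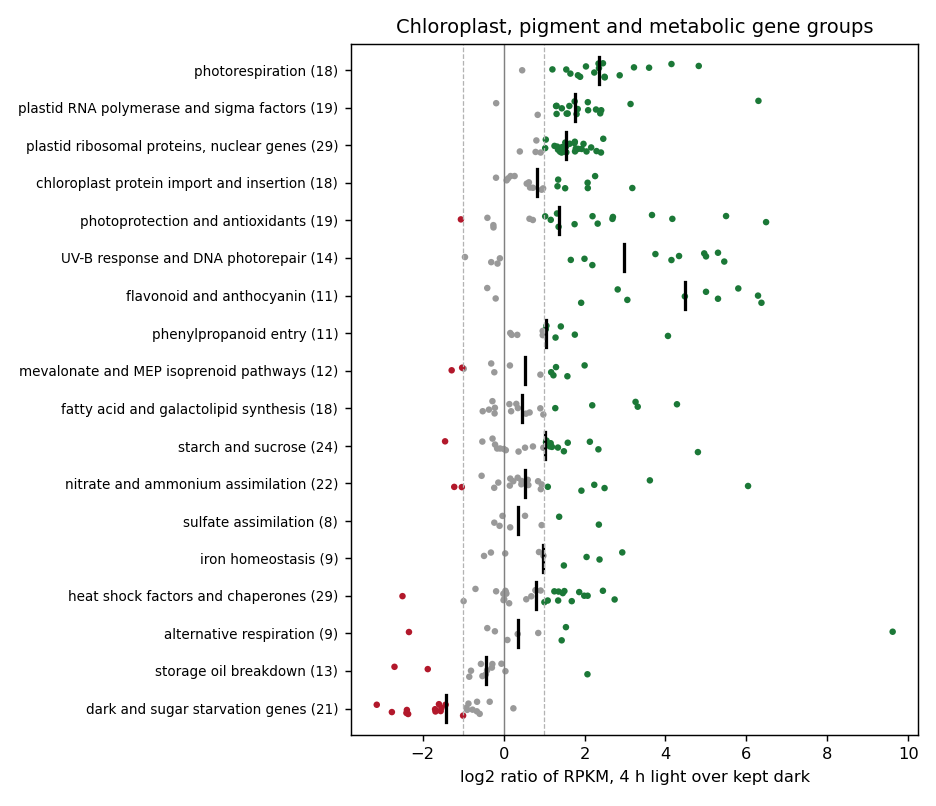
Log2 ratio of RPKM, light over dark, of the measured members (number in brackets) of 18 gene groups. Each dot is 1 gene, green at 2-fold higher or more, red at 2-fold lower or more and grey between, the black bar is the median, and dashed lines mark 2-fold. All but 1 photorespiration gene lies to the right of the 2-fold line, and 12 of 21 starvation genes lie to the left of it.

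Starch genes rose in 12 of 24 cases and fell in 1, with a median of 1.01. BAM3, a plastid beta-amylase, had 41.5 RPKM in light and 1.49 RPKM in the dark, 27.9-fold (24.3 to 32.2), and BAM4, a related protein without catalytic activity, was the one that fell, with 9.85 RPKM in light and 26.9 RPKM in the dark. On the side of synthesis, ADG1, the small subunit of ADP-glucose pyrophosphorylase, had 34.9 RPKM in light and 6.88 RPKM in the dark, and GBSS1, the granule-bound starch synthase, had 2.81 RPKM in light and 0.64 RPKM in the dark. TPT, which exports triose phosphate from the chloroplast, stood at 232 RPKM in light and 82.8 RPKM in the dark. SPS1F, a sucrose phosphate synthase, changed least, with 36.6 RPKM in light and 36.6 RPKM in the dark. BAM3, BAM4 and TPT overlap another listed locus.

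Many genes that mark darkness and lack of sugar fell. Of 21 genes 12 fell and none rose, with a median of -1.43. Their summed level was 3096 RPKM in light and 8363 RPKM in the dark. BCAT-2 (AT1G10070), a mitochondrial aminotransferase of branched-chain amino acids, had 46.7 RPKM in light and 411 RPKM in the dark, 8.801-fold (8.59 to 9.01) lower. SEN1, a classic gene of darkness and senescence, had 97.2 RPKM in light and 660.1 RPKM in the dark, 6.79-fold (6.66 to 6.93) lower. ASN1, the dark-induced asparagine synthetase, had 192 RPKM in light and 1015 RPKM in the dark, 5.29-fold (5.24 to 5.35) lower. The next steps of leucine breakdown went with BCAT-2, as the methylcrotonyl-CoA carboxylase subunits MCCA and MCCB had 99.9 RPKM in light and 321 RPKM in the dark for MCCA and 63.8 RPKM in light and 207 RPKM in the dark for MCCB. Just at the threshold stood IVD, isovaleryl-CoA dehydrogenase, with 102 RPKM in light and 205 RPKM in the dark. GDH1 and GDH2, glutamate dehydrogenases, had 18.8 RPKM in light and 96.6 RPKM in the dark for GDH1 and 189 RPKM in light and 512 RPKM in the dark for GDH2. The trehalose phosphate synthase genes TPS8 to TPS11 had ratios between -0.90 and -0.59 on the log2 scale, none past 2-fold. BZIP63, a factor of the energy response, changed least, with 51.6 RPKM in light and 43.7 RPKM in the dark. In polysomal mRNA the median of the list was -2.01. BCAT-2, MCCA and GDH1 overlap another listed locus.

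Among nitrogen genes the asparagine synthetases did not move together. ASN2 rose, with 41.3 RPKM in light and 3.37 RPKM in the dark, 12.2-fold (11.2 to 13.4). ASN1 fell but stayed above ASN2, at 192 RPKM in light, and ASN3 had 10.4 RPKM in light and 5.75 RPKM in the dark. Among 22 genes of nitrate and ammonium use, 6 rose and 2 fell. AMT1;2, an ammonium transporter, had 922 reads in light and 10 in the dark, or 5.14 RPKM in light and 0.08 RPKM in the dark. The nitrite reductase NIR1 had 89.9 RPKM in light and 23.7 RPKM in the dark. GS2 and GLU1, the plastid glutamine synthetase and ferredoxin-dependent glutamate synthase that also serve photorespiration, had 547 RPKM in light and 116 RPKM in the dark for GS2 and 273 RPKM in light and 48.4 RPKM in the dark for GLU1. Nitrate reductase stood short of 2-fold, NIA2 with 235 RPKM in light and 122 RPKM in the dark and NIA1 with 120.2 RPKM in light and 88.5 RPKM in the dark. The transporters NRT1.1 and NRT1.5 fell, with 29.5 RPKM in light and 60.5 RPKM in the dark for NRT1.1 and 16.2 RPKM in light and 37.7 RPKM in the dark for NRT1.5. GLU2, the other ferredoxin-dependent glutamate synthase, changed least (-0.13 on the log2 scale). In sulfate assimilation 2 of 8 genes rose, both APS reductases, APR2 with 31.6 RPKM in light and 6.19 RPKM in the dark and APR3 with 12.8 RPKM in light and 4.95 RPKM in the dark, while APR1 had 4.42 RPKM in light and 2.31 RPKM in the dark and OASA1, a cysteine synthase, changed least (-0.03 on the log2 scale). GLU1, NRT1.5, APR3 and APR1 overlap another listed locus.

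Iron and mitochondrial genes held a few large changes. In iron homeostasis 4 of 9 genes rose and none fell. FRO7, the ferric reductase of the chloroplast, had 7.23 RPKM in light and 0.95 RPKM in the dark, 7.63-fold (6.49 to 9.02), and the ferritins FER3 and FER4 had 57.1 RPKM in light and 13.8 RPKM in the dark for FER3 and 52.3 RPKM in light and 18.7 RPKM in the dark for FER4. NAS4, a nicotianamine synthase, had 2.12 RPKM in light and 0.41 RPKM in the dark. FER1, the most abundant ferritin gene, had 202 RPKM in light and 251 RPKM in the dark. BTS, a ubiquitin ligase of iron sensing, changed least (0.04 on the log2 scale). Among 9 genes of alternative respiration NDA1, an NADH dehydrogenase of the inner mitochondrial membrane that bypasses complex I, stood out. It had 2197 reads in light and 2 in the dark, a ratio of 785 with an interval of 217 to 6482, and 4.69 on the log2 scale in polysomal mRNA. Its relative NDA2 had 5.76 RPKM in light and 7.62 RPKM in the dark. The alternative oxidase AOX1A had 28.3 RPKM in light and 15.7 RPKM in the dark, and AOX2 fell, with 0.42 RPKM in light and 2.1 RPKM in the dark. CYTC-2, a cytochrome c, had 29.4 RPKM in light and 10.12 RPKM in the dark, and NDB2 changed least (0.09 on the log2 scale). FER4 and FER1 overlap another listed locus.

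Reserves stored as oil are used through beta-oxidation and the glyoxylate cycle. Of 13 genes 2 fell, ICL and PCK1, and 1 rose. The gene that rose was PMDH2, the peroxisomal malate dehydrogenase that also serves photorespiration, with 212 RPKM in light and 50.6 RPKM in the dark, while PMDH1 had 32.8 RPKM in light and 34.1 RPKM in the dark. MLS, the malate synthase that acts with ICL, had 20.5 RPKM in light and 35.9 RPKM in the dark. The core of beta-oxidation lay between, such as the thiolase PED1 with 149.8 RPKM in light and 216 RPKM in the dark. ACX1, an acyl-CoA oxidase, changed least (0.04 on the log2 scale).

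Among regulators of the light response the BBX and CONSTANS-like factors, zinc finger proteins with B-boxes, moved far in both directions. Of 26 members 9 rose and 6 fell. BBX30, a microprotein of the family, had 630 reads in light and 2 in the dark, a ratio of 225 (62.02 to 1862). BBX32 had 11.3 RPKM in light and 0.07 RPKM in the dark, and BBX31 had 9.63 RPKM in light and 0.59 RPKM in the dark. BBX24 was the most abundant, at 541 RPKM in light and 110.03 RPKM in the dark. At the other end BBX23 (AT4G10240) had 1 read in light and 234 in the dark, or 0.01 RPKM in light and 3.72 RPKM in the dark, and its polysomal ratio was -7.54 on the log2 scale. BBX17 had 3.44 RPKM in light and 52.9 RPKM in the dark, 15.4-fold (14 to 16.9) lower, and BBX6 had 101 RPKM in light and 242 RPKM in the dark. BBX4 changed least, with 75.4 RPKM in light and 73.6 RPKM in the dark. BBX32 overlaps another listed locus.

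Of 9 genes of the COP1/SPA and DET1 repressors of the light response, 4 rose and none fell. SPA3 had 39.05 RPKM in light and 6.97 RPKM in the dark, 5.603-fold (5.31 to 5.92), SPA1 had 88.97 RPKM in light and 16.4 RPKM in the dark, 5.41-fold (5.23 to 5.59), and SPA4 had 20.7 RPKM in light and 6.29 RPKM in the dark. COP1 had 27.97 RPKM in light and 12.3 RPKM in the dark, 2.28-fold (2.17 to 2.403). SPA2, the member most active in darkness, had 21.03 RPKM in light and 19.8 RPKM in the dark. COP10 changed least (-0.06 on the log2 scale). In a list of the PIF factors, other bHLH factors of dark growth and the phytochrome A transport proteins FHY1 and FHL, 1 of 11 rose and 5 fell. PIF7, which acts in shade and warmth, was the gene that rose, with 9.97 RPKM in light and 0.27 RPKM in the dark, 37.2-fold (26.2 to 54.5). PIF1, PIF3, PIF4 and PIF5 lay between -0.20 and 0.69 on the log2 scale. PIL1 had 0.68 RPKM in light and 22 RPKM in the dark and FHL, which carries phytochrome A into the nucleus, had 1.4 RPKM in light and 9.57 RPKM in the dark, while HFR1 changed least (-0.15 on the log2 scale). PAR1 and PAR2, atypical bHLH proteins that restrain shade growth, had 4.79 RPKM in light and 28.2 RPKM in the dark for PAR1 and 9.93 RPKM in light and 31.4 RPKM in the dark for PAR2. SPA3 and PIF7 overlap another listed locus.

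HD-Zip factors, many of them tied to shade growth and drought, had 11 of 20 members lower and none higher, with a median of -1.07. HAT4, also named ATHB2, had 4.24 RPKM in light and 57.1 RPKM in the dark, 13.5-fold (12.3 to 14.9) lower. HAT7 had 3.01 RPKM in light and 30.6 RPKM in the dark, 10.2-fold (9.18 to 11.3) lower, and HAT2, an auxin-induced member, had 13.9 RPKM in light and 75.9 RPKM in the dark. HB53 had 0.27 RPKM in light and 2.27 RPKM in the dark. HB7 and HB12, both induced by drought, had 74.3 RPKM in light and 73.9 RPKM in the dark for HB7 and 90.8 RPKM in light and 126 RPKM in the dark for HB12.

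Among auxin response genes more fell than rose. SAUR genes encode small proteins, many of which promote cell expansion, and 32 of 54 measured members fell while 5 rose. Of 79 annotated SAUR genes, 65 were listed in both libraries and 54 were measured. The median was -1.25 on the log2 scale and -2.27 in polysomal mRNA. SAUR25 (AT4G13790) had 14 reads in light and 358 in the dark, or 0.25 RPKM in light and 9.02 RPKM in the dark, 35.8-fold (21.1 to 66.2) lower. SAUR13 had 0.79 RPKM in light and 13.2 RPKM in the dark, and SAUR9 had 0.94 RPKM in light and 10.6 RPKM in the dark. The neighbours on chromosome 5 from SAUR19 to SAUR24, known as promoters of hypocotyl growth, all fell, among them SAUR19 with 3.9 RPKM in light and 30.4 RPKM in the dark and SAUR22 with 3.87 RPKM in light and 33.4 RPKM in the dark. SAUR72 changed least (-0.13 on the log2 scale). The members that rose include SAUR14 with 51.4 RPKM in light and 14.2 RPKM in the dark and SAUR46 with 9.78 RPKM in light and 2.59 RPKM in the dark. SAUR78, the most abundant in light, had 132 RPKM in light and 88.8 RPKM in the dark, and SAUR50, known to act in cotyledons, had 42.98 RPKM in light and 76.9 RPKM in the dark. Several SAUR genes are similar in sequence, so reads of neighbours may be mixed. SAUR13 overlaps another listed locus.

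Aux/IAA repressors had 6 of 25 members lower and 1 higher. IAA6 had 2.48 RPKM in light and 21.4 RPKM in the dark, 8.66-fold (7.44 to 10.12) lower, IAA29 had 1.96 RPKM in light and 15.8 RPKM in the dark and IAA19 had 14.9 RPKM in light and 109 RPKM in the dark. IAA28 rose, with 29.2 RPKM in light and 8.87 RPKM in the dark, 3.29-fold (3.02 to 3.59). IAA18 changed least (-0.04 on the log2 scale). IAA7 and IAA17, among the most abundant, had 236 RPKM in light and 336 RPKM in the dark for IAA7 and 159.9 RPKM in light and 218 RPKM in the dark for IAA17. In synthesis, transport and conjugation of auxin 3 of 16 genes fell and 1 rose. The GH3 enzymes split, as GH3.3 and GH3.5 fell, GH3.5 with 89.5 RPKM in light and 378 RPKM in the dark, and DFL1, also named GH3.6, rose, with 252 RPKM in light and 107 RPKM in the dark. YUC8, of the last step of auxin synthesis, had 7.1 RPKM in light and 16.4 RPKM in the dark, and the aminotransferase TAA1 stood just short of 2-fold with 5.45 RPKM in light and 10.6 RPKM in the dark. The efflux carriers PIN3, PIN4 and PIN7 had ratios of -0.02, 0.03 and -0.31 on the log2 scale.

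Brassinosteroid genes had 7 of 20 members lower and none higher. PRE5 and PRE1, small HLH proteins that promote growth, had 0.92 RPKM in light and 7.16 RPKM in the dark for PRE5 and 1.7 RPKM in light and 9.09 RPKM in the dark for PRE1. SOB7 and BAS1, which inactivate brassinosteroids, had 14.2 RPKM in light and 46.1 RPKM in the dark for SOB7 and 10.4 RPKM in light and 21.3 RPKM in the dark for BAS1. CPD, a synthesis enzyme under feedback, had 58.7 RPKM in light and 149.9 RPKM in the dark, the receptor BRI1 had 72.1 RPKM in light and 128 RPKM in the dark, short of 2-fold, and ROT3 of the synthesis pathway changed least (-0.00 on the log2 scale). Gibberellin genes had 7 of 19 lower and 1 higher. The inactivating oxidase GA2OX1 was the one that rose, with 15.8 RPKM in light and 1.2 RPKM in the dark, 13.2-fold (10.8 to 16.3), while GA2OX6 of the same family had 2.92 RPKM in light and 15.7 RPKM in the dark. The synthesis genes GA3OX1 and GA20OX1 had 1.96 RPKM in light and 6.48 RPKM in the dark for GA3OX1 and 3.56 RPKM in light and 7.88 RPKM in the dark for GA20OX1. The DELLA repressors GAI, RGL1 and RGL3 fell, GAI with 13.03 RPKM in light and 41.7 RPKM in the dark, and RGA1, the most abundant of them, had 71.98 RPKM in light and 96.5 RPKM in the dark. SLY1, the F-box protein that removes DELLA proteins, changed least (-0.09 on the log2 scale). CPD overlaps another listed locus.

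Ethylene genes, which act in the apical hook, had 5 of 18 members lower and none higher. ACS5, an ACC synthase of etiolated seedlings, had 0.17 RPKM in light and 10.9 RPKM in the dark, 62.4-fold (43.5 to 92.9) lower. HLS1, required for the hook, had 3.14 RPKM in light and 11.8 RPKM in the dark, 3.75-fold (3.397 to 4.15) lower. The receptor gene ERS2 had 8.01 RPKM in light and 19.1 RPKM in the dark, and the receptor gene ETR1 changed least (0.05 on the log2 scale). The transcription factor EIN3 and its F-box protein EBF2 stood just past the threshold, with 139 RPKM in light and 289.9 RPKM in the dark for EIN3 and 78.6 RPKM in light and 161 RPKM in the dark for EBF2. Of 15 cytokinin genes 5 rose and 2 fell, and those that rose were all response regulators of type A. ARR16 had 1.94 RPKM in light and 0.37 RPKM in the dark, ARR4 had 33.5 RPKM in light and 9.98 RPKM in the dark, 3.36-fold (3.13 to 3.61), while ARR5 of the same type had 30.7 RPKM in light and 28.7 RPKM in the dark. ARR7 had 4.11 RPKM in light and 1.38 RPKM in the dark, CKX5, a cytokinin oxidase, had 2.37 RPKM in light and 8.1 RPKM in the dark, and RR10 changed least (0.04 on the log2 scale). In the list of abscisic acid and drought 3 of 17 genes rose and 2 fell. ABI5, a bZIP factor of germination, had 2.89 RPKM in light and 7.58 RPKM in the dark, and RD22 changed least (0.04 on the log2 scale). The synthesis enzyme NCED3 had 2.4 RPKM in light and 9.32 RPKM in the dark, and the catabolic enzyme CYP707A2 had 6.08 RPKM in light and 0.9 RPKM in the dark. Of 11 jasmonate and wounding genes VSP2 alone passed 2-fold, with 5.65 RPKM in light and 2.78 RPKM in the dark. AOC1 of jasmonate synthesis, the receptor COI1 and the repressor JAZ1 had log2 ratios of 0.86, -0.58 and -0.01. ETR1, CKX5 and COI1 overlap another listed locus.

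**Figure D3:**
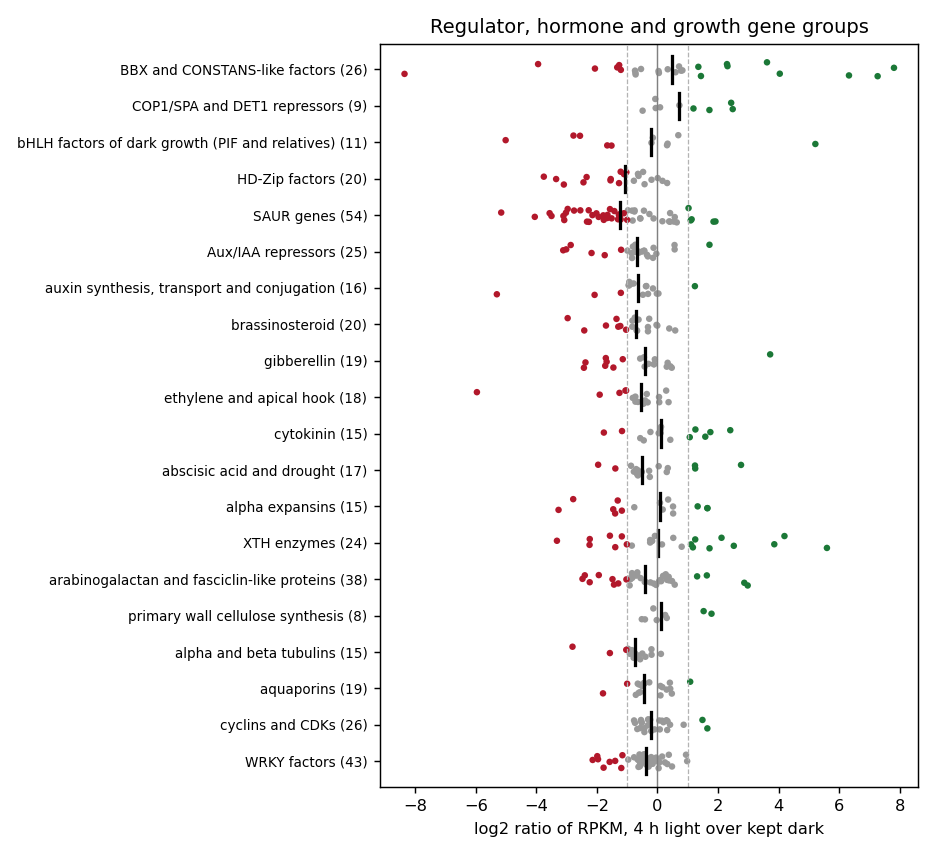
Log2 ratio of RPKM, light over dark, of the measured members (number in brackets) of 20 groups of regulator, hormone and growth genes. Each dot is 1 gene, green at 2-fold higher or more, red at 2-fold lower or more and grey between, the black bar is the median, and dashed lines mark 2-fold. The group of bHLH factors of dark growth also holds FHY1 and FHL. BBX factors spread from -8.36 to 7.81, HD-Zip and SAUR genes lie mostly to the left, and cyclins lie near 0.

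XTH enzymes of the cell wall had 9 of 24 members higher and 7 lower, with a median of 0.03, or -0.08 once genes of any level are included. Besides XTH7, XTH32 had 44 RPKM in light and 2.4 RPKM in the dark, 18.3-fold (15.98 to 21.1), and XTH6 had 77.99 RPKM in light and 5.37 RPKM in the dark, 14.5-fold (13.2 to 15.99). In the other direction XTH15 had 86.2 RPKM in light and 862 RPKM in the dark, 9.99-fold (9.79 to 10.2) lower, and XTH19 and XTH8 had 17.9 RPKM in light and 84.95 RPKM in the dark for XTH19 and 18.5 RPKM in light and 87.2 RPKM in the dark for XTH8. The most abundant members were XTH4 with 917 RPKM in light and 1084 RPKM in the dark and XTH24 with 739 RPKM in light and 1669.5 RPKM in the dark, and the sum over the family was 3352 RPKM in light and 4949.9 RPKM in the dark. Alpha expansins, which loosen walls, had 3 of 15 higher and 6 lower. EXPA1 had 82.7 RPKM in light and 26.3 RPKM in the dark and EXPA16 had 12.5 RPKM in light and 3.99 RPKM in the dark, whereas EXPA9 had 4.87 RPKM in light and 46.9 RPKM in the dark and EXPA11 had 8.99 RPKM in light and 61.9 RPKM in the dark. In polysomal mRNA EXPA16 went the other way, at -0.89 on the log2 scale. EXPA1 and EXPA10, the others that rose, stood there at 1.60 and 1.88. The least changed were EXPA13 (0.08 on the log2 scale) and, among XTH genes, XTH33 (-0.08). Cellulose synthase genes of the primary wall rose in 2 of 8 cases, CESA5 with 47.5 RPKM in light and 13.8 RPKM in the dark and CESA2 with 61.3 RPKM in light and 21.3 RPKM in the dark. The core subunits CESA1 and CESA3 had 192 RPKM in light and 195 RPKM in the dark for CESA1 and 188 RPKM in light and 158 RPKM in the dark for CESA3. CSI1, which links the enzyme complex to microtubules, had 29.7 RPKM in light and 42.5 RPKM in the dark. XTH15, CESA1 and CESA3 overlap another listed locus.

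**Figure D4:**
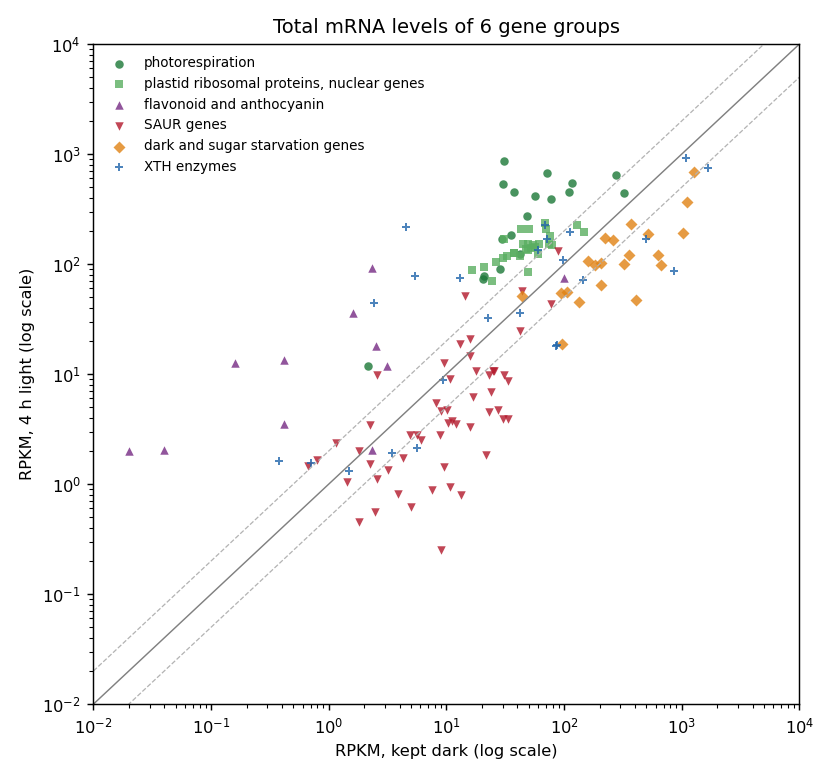
RPKM in light (y axis) against RPKM in the dark (x axis), both on log scales, of the measured members of 6 gene groups. The solid line marks equal levels and the dashed lines 2-fold. Most photorespiration and plastid ribosomal genes lie above the upper line, SAUR and starvation genes mostly below equality, and XTH genes on both sides, XTH7 at 219 RPKM in light, against 4.52 RPKM in the dark and XTH15 at 86.2 RPKM in light, against 862 RPKM in the dark.

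Arabinogalactan and fasciclin-like proteins of the cell surface had 4 of 38 members higher and 8 lower. AGP17 had 19.3 RPKM in light and 2.45 RPKM in the dark and FLA15 had 23.2 RPKM in light and 3.17 RPKM in the dark. AGP22 had 38.9 RPKM in light and 217 RPKM in the dark, AGP4 had 35.6 RPKM in light and 168 RPKM in the dark, and FLA9, the most abundant in the dark, had 350.2 RPKM in light and 859 RPKM in the dark. AGP3 had 0.37 RPKM in light and 1.96 RPKM in the dark, and AGP25 changed least (-0.05 on the log2 scale). Tubulins had no member that rose. Of 15 genes 3 fell, and the sum was 2969.9 RPKM in light and 5095 RPKM in the dark. TUB1, a tubulin gene known to be lowered by light through phytochrome, had 10.5 RPKM in light and 73.7 RPKM in the dark, 6.997-fold (6.64 to 7.38) lower, TUB6 had 133 RPKM in light and 396 RPKM in the dark, TUB4 had 407 RPKM in light and 831 RPKM in the dark, and TUB7 changed least (0.11 on the log2 scale). Aquaporins, with 16140.5 RPKM in light and 19894 RPKM in the dark in sum, had 2 of 19 members lower and 1 higher. PIP2;4 had 25.4 RPKM in light and 88.4 RPKM in the dark, PIP1;3 lay at the threshold with 995 RPKM in light and 1991 RPKM in the dark, PIP1;4 had 176 RPKM in light and 83.2 RPKM in the dark, and PIP1;1 changed least (0.10 on the log2 scale). In the cuticle list 2 of 17 genes rose, HTH with 152 RPKM in light and 38.96 RPKM in the dark and the acyl-CoA synthetase LACS2 with 29.4 RPKM in light and 8.51 RPKM in the dark, and the lipid transfer protein LTP2 fell, with 309 RPKM in light and 989.6 RPKM in the dark, while LCR changed least (-0.01 on the log2 scale). TUB1, TUB6 and TUB7 overlap another listed locus.

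Genes of cell division and of ribosome building changed little at 4 h. Of 26 cyclins and cyclin-dependent kinases 2 rose and none fell. Both that rose were D-type cyclins, which link growth signals to the cycle, CYCD3;2 with 37.9 RPKM in light and 13.5 RPKM in the dark and CYCD6;1 with 1.9 RPKM in light and 0.61 RPKM in the dark. CYCD3;3 had 7.49 RPKM in light and 4.11 RPKM in the dark, and CDKB2;2 changed least (0.06 on the log2 scale). Mitotic cyclins stayed between, such as CYCB1;4 with 7.26 RPKM in light and 11.5 RPKM in the dark. None of 11 DNA replication genes and none of 9 genes of ribosome biogenesis passed 2-fold. Their ratios ran from -0.73 to 0.63 and from 0.08 to 0.97 on the log2 scale. Among replication genes CDC45, PCNA1, MCM6 and TSO2 stood at -0.73, 0.63, 0.58 and -0.00, and among genes of ribosome biogenesis NOP56, APUM24 and FIB1 at 0.79, 0.74 and 0.08. RID2, a methyltransferase of pre-rRNA processing, came closest, with 6.62 RPKM in light and 3.39 RPKM in the dark. Of 8 measured glucosinolate genes 1 passed 2-fold, near the 12.9% of all measured genes that rose. It was MYB34, an activator of indole glucosinolates, with 30.4 RPKM in light and 8.72 RPKM in the dark. MYB51, TGG2 and CYP79B3 had log2 ratios of -0.74, -0.66 and -0.04. CYCD6;1, TSO2 and FIB1 overlap another listed locus.

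Of 29 heat shock factors and chaperones 13 rose and 1 fell. The members that rose include chaperonins of the chloroplast, CPN60A with 240.5 RPKM in light and 60.5 RPKM in the dark and CPN20 with 354 RPKM in light and 97.2 RPKM in the dark, and of the mitochondrion, HSP60 with 36.4 RPKM in light and 14.2 RPKM in the dark and CPN10 with 57.8 RPKM in light and 20.99 RPKM in the dark. HSP70 had 423 RPKM in light and 63.2 RPKM in the dark, and HSC70-1, the most abundant, had 908 RPKM in light and 900.5 RPKM in the dark. HSFA2 had 5.68 RPKM in light and 1.04 RPKM in the dark, and HSFA7B fell, with 0.65 RPKM in light and 3.69 RPKM in the dark, while HSFA3 changed least (-0.00 on the log2 scale). WRKY factors, mostly of defence, had 8 of 43 members lower and none higher, with WRKY60 at 2.31 RPKM in light and 10.2 RPKM in the dark, WRKY15 at 11.4 RPKM in light and 45.4 RPKM in the dark and WRKY28 at 0.49 RPKM in light and 1.92 RPKM in the dark, and WRKY69 changed least (0.04 on the log2 scale). NAC factors had 5 of 41 lower and 1 higher, NAC13, a factor of mitochondrial stress, with 13.9 RPKM in light and 5.69 RPKM in the dark. NAC027, with 1 read in light and 154 in the dark, overlaps a listed locus, and its polysomal log2 ratio was 0.75. NAC3 (AT3G15500) had 30.2 RPKM in light and 80.6 RPKM in the dark, NAC2 (AT3G15510) had 17.8 RPKM in light and 46.9 RPKM in the dark, and NAC010 changed least (0.00 on the log2 scale). AP2/ERF factors had 3 of 33 higher and 3 lower, which is 9.09% in each direction beside 12.9% higher and 7.65% lower over all measured genes. RAP2.6 had 35.3 RPKM in light and 4.06 RPKM in the dark and DREB2A had 40.1 RPKM in light and 15.8 RPKM in the dark. ERF10 had 0.37 RPKM in light and 2.68 RPKM in the dark and DEAR1 had 1.73 RPKM in light and 5.2 RPKM in the dark, and DEAR2 changed least (0.02 on the log2 scale). CPN20, CPN10, WRKY69, NAC13, NAC027 and DREB2A overlap another listed locus.

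In the clock list 5 of 15 genes rose and none fell, ELF4 with 50.9 RPKM in light and 4.2 RPKM in the dark, LNK1 with 69.4 RPKM in light and 15.9 RPKM in the dark and PRR9, which has a near-identical copy, with 20.6 RPKM in light and 4.89 RPKM in the dark. CHE changed least (0.02 on the log2 scale). PRR5 and CCA1 stood near the threshold with 16.9 RPKM in light and 8.05 RPKM in the dark for PRR5 and 28.2 RPKM in light and 14.3 RPKM in the dark for CCA1. LHY stood just short of 2-fold lower, with 4.88 RPKM in light and 9.59 RPKM in the dark, and its polysomal log2 ratio was 0.46. Of the photoreceptors PHOT2 rose, with 45.5 RPKM in light and 12.6 RPKM in the dark, and PHYA fell. PHYE and PHYD had log2 ratios of 0.73 and -0.06. PHYB and CRY1 had 38.2 RPKM in light and 28.4 RPKM in the dark for PHYB and 79.5 RPKM in light and 71.5 RPKM in the dark for CRY1, short of 2-fold. LNK1 and PHYE overlap another listed locus.

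Among microRNA genes 38 of 326 annotated were measured, 2 rose and 13 fell (34.2%), with a median of -0.66. The values are those of precursor transcripts purified by their poly(A) tails, and mature microRNAs were not measured. The mature sequences of 8 genes past the threshold are shown to identify them, read from TAIR10.1 by the coordinates of the annotation, 5′ to 3′ as DNA, with the seed (bases 2 to 8) in capitals.
miR163: tTGAAGAGgacttggaacttcgat
miR157c-5p: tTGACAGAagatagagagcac
miR390b-5p: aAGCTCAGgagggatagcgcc
miR167a-5p: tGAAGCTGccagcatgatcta
miR167d: tGAAGCTGccagcatgatctgg
miR159b-3p: tTTGGATTgaagggagctctt
miR156a-5p: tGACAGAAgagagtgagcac
miR160c-5p: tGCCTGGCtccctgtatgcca

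They lie on chromosome 1 (miR163, 24884359 to 24884382, plus strand, miR167d, 11137556 to 11137577, plus strand, and miR159b-3p, 6220813 to 6220833, plus strand), chromosome 2 (miR156a-5p, 10676534 to 10676553, minus strand), chromosome 3 (miR157c-5p, 6244673 to 6244693, minus strand, and miR167a-5p, 8108090 to 8108110, plus strand) and chromosome 5 (miR390b-5p, 23636961 to 23636981, plus strand, and miR160c-5p, 19009158 to 19009178, minus strand). MIR163, whose microRNA targets methyltransferase mRNAs, and MIR157c were the genes that rose, MIR157c with 2.36 RPKM in light and 0.44 RPKM in the dark. MIR390b, whose microRNA starts the production of tasiRNAs against auxin response factors, had 12 reads in light and 158 in the dark, or 0.24 RPKM in light and 4.48 RPKM in the dark, 18.4-fold (10.3 to 36.4) lower. MIR167a and MIR167d, which share a seed and target auxin response factors, had 0.77 RPKM in light and 3.96 RPKM in the dark for MIR167a and 1.65 RPKM in light and 5.22 RPKM in the dark for MIR167d. MIR159b, which targets GAMYB-like factors, had 1.75 RPKM in light and 6.51 RPKM in the dark. The genes of miR156a to miR156f, the repressor of SPL factors that holds back the adult phase, share 1 mature 5p sequence and did not all pass the threshold. MIR156a fell, with 10.3 RPKM in light and 22.4 RPKM in the dark, as did MIR156d, with 5.71 RPKM in light and 16.9 RPKM in the dark, and MIR156e, with 1.48 RPKM in light and 3.76 RPKM in the dark. MIR156f, by far the most abundant, had 218 RPKM in light and 391 RPKM in the dark, and MIR156b and MIR156c had ratios of -0.96 and -0.21 on the log2 scale. Of the miR160 genes, which target auxin response factors, MIR160c had 5.87 RPKM in light and 14.3 RPKM in the dark and MIR160b had 4.97 RPKM in light and 4.59 RPKM in the dark. MIR414 changed least (0.09 on the log2 scale). MIR156d, MIR156f and MIR156b overlap another listed locus.

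Organelle genes were a small part of these libraries, 0.149% of listed reads in light and 0.151% in the dark for the plastid, and 0.0827% in light and 0.0697% in the dark for the mitochondrion. The libraries hold mRNA purified by poly(A) tails, and the part of this in the organelle shares and ratios was not tested. Of 83 measured plastid genes 21 were at least 2-fold higher and none lower. Many of the 21 rest on few reads, such as ATCG00090 with 86 in light and 8 in the dark. ATCG01170 had 56 reads in light and 1 in the dark, but ATCG00960 had the same 56 in light and 68 in the dark. ATCG01200 and ATCG00930, both among the 21, had the same 17 reads in light and 5 in the dark. Reads of such loci may be mixed or counted for both. ATCG00120 changed least (0.00 on the log2 scale). Of these 21, ATCG00905 had 33.9 RPKM in light and 16.5 RPKM in the dark and ATCG00630 had 22.2 RPKM in light and 1.69 RPKM in the dark. The plastid gene with the most reads, ATCG01180, was not among them, with 139 RPKM in light and 162 RPKM in the dark. Of 21 measured mitochondrial genes 4 were higher and 1 lower, led by ATMG01380 with 3.21 RPKM in light and 0.3 RPKM in the dark, and ATMG00330 had 2.28 RPKM in light and 0.35 RPKM in the dark and ATMG01080 had 7.24 RPKM in light and 2.16 RPKM in the dark. Among the higher genes, ATMG01380, ATMG01080 and ATMG00030 were not higher in polysomal mRNA, with log2 ratios of -0.42, -0.59 and -1.38. ATMG00330 had no polysomal ratio. The reason for this difference between fractions was not tested. ATMG00180 changed least (0.02 on the log2 scale).

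In all, 56 measured genes had at most 3 reads in 1 library, 40 in the dark and 16 in light, where a count of 1 may stand for 0 because no read count in the table is 0. Of these, 25 overlapped another measured locus or had a near-identical copy and 11 were not in the annotation. Of those genes 28 had polysomal reads in both libraries, and 8 of the 28 were at least 2-fold different the same way. Of the other 20 genes 19 had such polysomal reads, and 16 were at least 2-fold different the same way, among them MIR163, NDA1, LDOX and BBX30, higher in light, and BBX23, lower in light. CIPK20 (AT5G45820), a kinase gene that belongs to these 20, had 1106 reads in light and 1 in the dark, a ratio with an interval of 141 to 31227. AT5G50580 and AT5G50680, both annotated as SAE1B, a subunit of the SUMO-activating enzyme, traded places, AT5G50580 with 557 reads in light and 1 in the dark and AT5G50680 with 1 in light and 406 in the dark. Summed over the pair there were 558 reads in light and 407 in the dark, a log2 ratio of summed RPKM of -0.09. AT2G18160 and AT2G18162 had the same 8883 reads each in light, and in the dark AT2G18160 had 10052 and AT2G18162 had 1. PGLP1, the phosphoglycolate phosphatase of photorespiration, has copies at AT5G36700 and AT5G36790, with 1757 reads in light and 229 in the dark at the first and 1678 in light and 1 in the dark at the second. Their summed RPKM was 23.8 in light and 2.16 in the dark. In all, 45 pairs of loci at most 10 locus numbers apart had the same count of at least 100 reads in light, 53 in the dark and 35 in both.

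**Figure D5:**
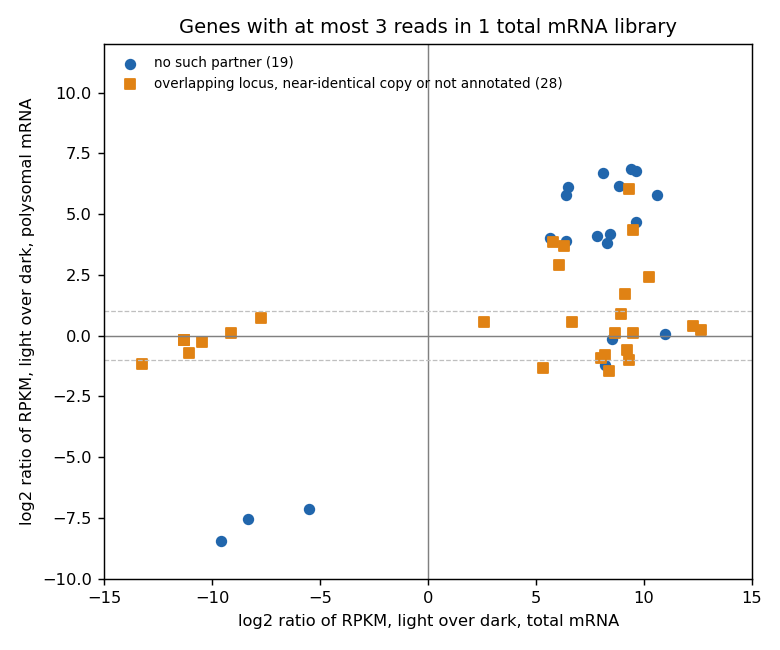
Log2 ratios of RPKM, light over dark, in total mRNA (x axis) and polysomal mRNA (y axis) of the 47 genes with at most 3 reads in 1 total mRNA library and polysomal reads in both. Squares are genes with an overlapping locus, a near-identical copy or no entry in the annotation, circles the others, and dashed lines mark 2-fold in polysomal mRNA. Of the 19 circles 16 lie past 2-fold the same way in both fractions, and of the 28 squares 8 do.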

How the data were processed

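Libraries of total and polysomal mRNA were read from the authors' deposited gene table. Its read counts for total mRNA are whole numbers per gene, per the file headers, and none is 0, so that a count of 1 may stand for 0. The polysomal reads, per the file headers reads per gene, are in part not whole and were treated as estimated counts as deposited by the authors. The authors made RPKM from reads and gene length, per the file headers. The deposited log2 ratio of the authors was not used, and it lay within 0.01 of the log2 ratio of RPKM for 98.8% of genes. The genome build is TAIR10, per the submitters' processing notes, and neither the aligner nor the counter nor strand use is stated (not given in the sources used here). The deposited splicing tables were not used.

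The RPKM ratio of light over dark was taken for genes with values in both libraries, and genes that averaged under 1 RPKM were left out of the counts. With 1 library a group no test was run. Exact 95% Clopper-Pearson intervals of the ratio were computed from the reads with scipy 1.17.1 in Python 3.11.15 (pandas 2.3.3, numpy 2.4.6), and PCR copies are not independent molecules, so they cover counting error only. The computation was tested on simulated data. Names, overlaps and promoters came from the RefSeq annotation of TAIR10.1, in which 17711 of the 17875 measured genes were found, read with pysam 0.24.0. Copies at least 95% identical over 50% of a gene were found with minimap2 2.31-r1302. For scaling by TMM, edgeR 4.0.16 in R 4.3.3 was used.

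Genes and lists were chosen with earlier results of these data known, and list membership was corrected against annotated names. Named genes are the 15 highest and 15 lowest ratios among named genes that averaged 10 RPKM or more and the 10 largest gains and losses in RPKM. Within each list they are the 3 largest changes, the smallest and those next to 2-fold. Other members are named for their role, and were chosen after their values were seen.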

Additional observations from a re-analysis of the deposited data

How the results depend on the processing

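As reported, 2301 genes rose and 1367 fell. With 1 added to each RPKM, 1881 rose and 1021 fell, and with 5 added 1230 rose and 538 fell. Without the filter on low values 2703 rose and 1650 fell, and with only genes that averaged 5 RPKM or more 1639 rose and 910 fell, out of 13057 genes. Setting the median gene of 5 RPKM or more to 0 gave 2424 that rose and 1244 that fell, TMM scaling 2377 that rose and 1286 that fell, and an interval wholly beyond 2-fold 1939 that rose and 1082 that fell. Without 1054 loci that share reads, a choice made after seeing the data, 2123 rose and 1274 fell. The higher share of changed genes ran from 62.1% to 69.6%, and the median moved by less than 0.05 on the log2 scale. Over 50% of members fell in 3 lists as reported, in 1 with 5 added and in 1 under the whole interval. Of 245 values of named genes under another setting 0 changed sign, and of 389 list medians 4 did: without the filter, alpha expansins were at -0.19, XTH enzymes at -0.08 and root markers at -0.41, and with at least 5 RPKM DNA replication was at -0.00. Adding to RPKM and raising the filter act on low genes by construction, and neither can change the sign of a single gene's ratio. Centring and TMM move every gene by the same step, 0.049 and 0.033 on the log2 scale. The least changed of the named extremes, gains and losses, TIP1;2, stood at -0.61. The 0 of 245 was therefore fixed in advance and is no check of these genes. For any other change the cause was not tested. No paired analysis was possible because each group held 1 library, and for the same reason no library could be left out.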

Other observations

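Grouped by the product name in the annotation, 163 families had at least 10 measured genes. Of 10 rhodanese-domain genes 7 were at least 2-fold higher in light and 1 lower, with a median log2 ratio of 1.63. Of 10 fibrillin genes, proteins of plastid lipid droplets, 6 were higher and 0 lower (median 1.31). The thioredoxin superfamily had 15 of 38 genes higher and 1 lower (median 0.75), and FKBP-like isomerases 5 of 13 higher and 0 lower (median 0.82). Mitochondrial transcription termination factor genes, several of which act in plastids, had 10 of 29 higher and 0 lower (median 0.44).

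On the other side stood genes annotated with a cysteine and histidine rich C1 domain, with 3 of 36 higher and 20 lower (median -1.12). Genes annotated as the plant invertase and pectin methylesterase inhibitor superfamily came in 2 annotated names, with 7 of 14 and 8 of 18 genes lower and 0 and 2 higher. The families were ranked after their values were seen, so these are descriptions.

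By annotated type, long noncoding RNA genes had 10 of 85 members higher (11.8%) and 9 lower (10.6%), beside 12.9% and 7.65% over all measured genes. Pseudogenes had 2 of 82 higher (2.44%) and 9 lower (10.98%). Among all measured genes 44 stood at or above 10 RPKM in light and under 1 RPKM in the dark, and 17 the reverse. Both counts include loci that share reads with another locus. AT2G18162 had 78.7 RPKM in light and 0.01 RPKM in the dark, but summed with AT2G18160 the log2 ratio was 0.41. AT5G01712 had 0.01 RPKM in light and 49.7 RPKM in the dark, but summed with AT5G01710 the log2 ratio was -0.63.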
